A study of Mus musculus with 18 samples.

Results

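The mRNAs of 7 subunits of the GABA-A receptor were followed in the mouse hippocampus: the alpha subunits *Gabra2*, *Gabra3*, *Gabra4* and *Gabra5*, the beta subunits *Gabrb1* and *Gabrb2*, and the delta subunit *Gabrd*. They were taken by name, with earlier results of these data known, and all 7 are among the 15329 genes of the expression table. Beside them, 7 further subunit genes of the same family are described. Each of 18 libraries came from the hippocampus of 1 mouse, a C57BL/6J animal 8 to 10 weeks old, with 3 mice in each of 6 groups. WT mice and knockout mice of *Ccny* (Ccny KO), the gene of the cyclin-family protein Cyclin Y, formed an untrained group each, WT_Basal and KO_Basal. The groups WT_OL and KO_OL had learned the Morris water maze, and WT_RL and KO_RL had then also gone through reversal learning, in which the hidden platform is moved. How the *Ccny* allele was made is not given in the sources used here. The comparisons address how hippocampal gene expression differs with training and with the loss of *Ccny*. Whole hippocampus holds many cell types, so that fewer cells of a type and less RNA per cell cannot be told apart.

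GABA-A receptors are pentameric chloride channels opened by GABA, the main inhibitory transmitter of the brain. Most combine alpha and beta subunits with a gamma subunit at synapses, whereas receptors with the delta subunit, often together with alpha4, lie outside synapses and carry tonic inhibition, for example in dentate granule neurons. The alpha subunit largely sets where a receptor is found and which drugs act on it, and alpha5 is known for its abundance in the hippocampus.

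In outline, *Gabra4* mRNA was lower in trained than in untrained mice of both genotypes, and *Gabra3* was lower after reversal learning in KO mice. None of the 4 separate training comparisons called *Gabrb2*. It was lower when all trained mice were set against all untrained mice. That comparison was chosen after the values had been seen, and it called 38.0% of all genes. The subunits *Gabra2*, *Gabrb1*, *Gabra5* and *Gabrd* passed the test in none of the 14 comparisons made. Comparisons of KO with WT mice called none of the 7, and at most 0.0652% of all genes.

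Most of the subunit genes lie in clusters, while *Gabrd* lies apart from the other subunit genes. On GRCm38 with GENCODE M21, *Gabra2* (5:70957597-71095849, minus strand), *Gabra4* (5:71569749-71658308, minus strand) and *Gabrb1* (5:71658113-72149037, plus strand) are neighbours on chromosome 5. *Gabrb2* (11:42419757-42629028, plus strand) is on chromosome 11, *Gabra5* (7:57407672-57510059, minus strand) on chromosome 7, *Gabra3* (X:72432681-72656848, minus strand) on the X chromosome and *Gabrd* (4:155384980-155398112, minus strand) on chromosome 4. *Gabra4* and *Gabrb1* are arranged head to head, and their annotated 5′ ends overlap by 196 bases on opposite strands. The setting for strand in the counting is not given in the sources used here, so reads from these shared bases, and from bases that *Gabra5* shares with the opposite-strand gene *Gm9962*, cannot be told apart.

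Promoter windows from 250 bases before to 50 bases after an annotated start (RefSeq, GRCm38.p6) were given for 6 of the 7 genes, 10 windows in all, and none for *Gabrd*. The 3 windows below belong to the subunits that passed the test in at least 1 training comparison. Capitals mark a match to TATAAA on either strand, the only one of the searched motifs found in any of the 10 windows.
Gabra4 promoter, chr5:71658259-71658558, minus strand: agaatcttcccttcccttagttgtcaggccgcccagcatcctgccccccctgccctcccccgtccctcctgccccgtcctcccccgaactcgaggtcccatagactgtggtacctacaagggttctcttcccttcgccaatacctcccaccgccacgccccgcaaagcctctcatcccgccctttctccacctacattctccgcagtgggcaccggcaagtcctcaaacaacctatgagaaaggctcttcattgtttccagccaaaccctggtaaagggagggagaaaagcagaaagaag
Gabra3 promoter, chrX:72656870-72657169, minus strand: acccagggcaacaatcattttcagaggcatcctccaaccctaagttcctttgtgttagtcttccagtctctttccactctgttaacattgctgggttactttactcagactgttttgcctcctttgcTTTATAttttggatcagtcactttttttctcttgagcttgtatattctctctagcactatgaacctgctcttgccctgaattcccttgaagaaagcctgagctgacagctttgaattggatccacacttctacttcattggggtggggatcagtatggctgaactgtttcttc
Gabrb2 promoter, chr11:42420190-42420489, plus strand: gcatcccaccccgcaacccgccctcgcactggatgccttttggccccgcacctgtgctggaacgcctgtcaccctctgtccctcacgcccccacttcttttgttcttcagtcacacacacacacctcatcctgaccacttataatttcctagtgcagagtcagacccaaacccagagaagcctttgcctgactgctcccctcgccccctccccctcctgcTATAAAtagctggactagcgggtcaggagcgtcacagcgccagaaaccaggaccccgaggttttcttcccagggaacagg

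The windows shown are those of annotated start 1 of each gene. The match in the *Gabrb2* window shown begins at -30 relative to that start, and the windows of *Gabrb2* starts 2 and 3 held none. In the *Gabra3* window shown the match, on the other strand, begins at -123, and in that of *Gabra3* start 2 at -235. The *Gabra4* window held no match. TATAAA was present on either strand in 13.6% of 32851 mouse promoter windows of this length. The other motifs, those of activity-dependent transcription factors, were TGACGTCA (the CRE, in 1.79% of all windows), TGANTCA (AP-1, 7.81%) and the Egr motifs GCGTGGGCG (0.612%) and GCGGGGGCG (2.91%), each searched on both strands. A CRE does not contain the AP-1 letters, and the absence of a match says only that these letters are not in these windows.

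Levels are in CPM, counts scaled to library size after TMM normalization, as recovered from the deposited values. Differences are between group means of log2(CPM + 1) from limma, with the standard error (SE), and a gene was called at a Benjamini-Hochberg adjusted p under 0.05 over all 15329 genes. Reads on the listed genes numbered 29248557 to 37915576 per library, so that the least covered of the 7 subunits in the least covered library, *Gabrd*, still had 560 reads. *Ccny* itself was at 158, 150 and 158 CPM in WT_Basal and at 95.8, 90.5 and 89.6 CPM in KO_Basal. Over all training states, every KO library was below every WT library, whose lowest level was 107 CPM, as the labels have it, and reads remained on the gene in KO mice. Markers of dentate granule neurons, of CA pyramidal neurons and of GABAergic interneurons were all detected in every group.

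The libraries differed in ways that accompany training. The correlation of a library's deviations from the gene means with the GC content of the genes, called its GC trend here, ran from -0.57 to -0.35 in the 6 untrained libraries and from -0.03 to 0.42 in the 12 trained libraries, without overlap. Reads per library were also higher in all trained libraries, at 31830344 or more against 31509208 or fewer. All 5 nuclear RNAs of a marker list (*Malat1*, *Meg3*, *Neat1*, *Snhg11* and *Rian*) were lower in trained mice. Their sums overlapped, at 1153 to 3333 CPM in trained and 2344 to 3642 CPM in untrained mice. The WT_OL libraries were spread in the correlation of their deviations with transcript length, at -0.18, -0.54 and 0.44 in replicates 1, 2 and 3. Over all 18 libraries it ran from -0.54 in WT_OL replicate 2 to 0.57 in KO_RL replicate 2. One library, KO_Basal replicate 1, carried hypothalamic neuron markers at a summed level of 104 CPM, against 11.2 CPM or less in the other 17 libraries. How library preparation, dissection or time of day were arranged over the groups is not given in the sources used here, and these differences cannot be told apart from training by the design.

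**Figure D1:**
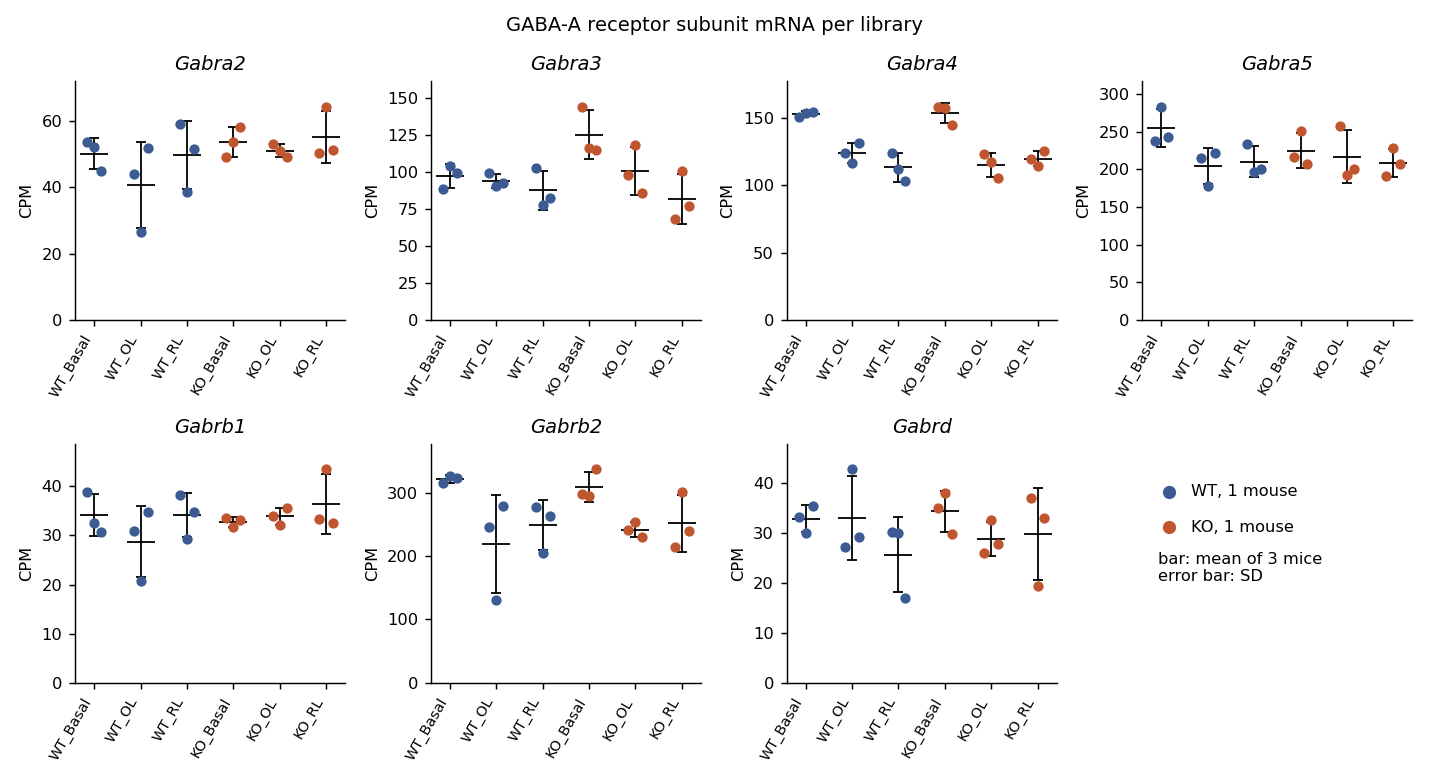
CPM of each of the 7 subunits (vertical axes, starting at 0) in the 18 libraries, by group, with WT mice in blue and KO mice in orange, and with the mean and SD of 3 mice. *Gabra4* lies between 145 and 158 CPM in all 6 untrained mice and between 104 and 132 CPM in the 12 trained mice, and WT_OL replicate 2 is the lowest library for *Gabra2*, *Gabra5*, *Gabrb1* and *Gabrb2*.

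*Gabra4*, the alpha4 subunit of extrasynaptic receptors, showed the most regular pattern of the 7. Its level was 151, 154 and 155 CPM in the WT_Basal mice, and 158, 158 and 145 CPM in the KO_Basal mice. After original learning it was 124, 116 and 132 CPM in WT and 123, 117 and 106 CPM in KO mice. After reversal learning it was 124, 112 and 104 CPM in WT and 119, 114 and 126 CPM in KO mice. No trained mouse reached the lowest untrained mouse, in either genotype. Among all genes, 9.25% had trained and untrained libraries that did not overlap in this way.

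On the log2 scale *Gabra4* fell by 0.31 (SE 0.08, adjusted p = 0.021 in limma) in WT_OL against WT_Basal, and by 0.44 (adjusted p = 0.0018) in WT_RL against WT_Basal. In KO mice it fell by 0.41 (adjusted p = 0.0014) after original learning and by 0.36 (adjusted p = 0.0037) after reversal learning, with the same SE. The 2 comparisons of a genotype share its untrained mice. The KO change minus the WT change was -0.11 after original learning (95% interval -0.34 to 0.12) and 0.08 after reversal learning (-0.15 to 0.31). Choroid plexus markers rose in the KO comparisons too: all 7 were called higher in KO_OL (summed 2390 to 4622 CPM, against 44.5 to 662 CPM in KO_Basal) and 6 of 7 in KO_RL, and their part was not tested. Their sums overlapped in WT mice, at 850 to 4323 CPM in WT_Basal, 1868 to 3278 CPM in WT_OL and 41.3 to 8381 CPM in WT_RL. Neither WT_RL against WT_OL (-0.13, adjusted p = 0.40) nor KO_RL against KO_OL (0.06, adjusted p = 1.0) was called.

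The WT_OL call was the least firm. It was lost when any 1 of the 3 WT_Basal mice, WT_OL replicate 1 or WT_OL replicate 2 was left out, with log2 changes of -0.32 to -0.26 and adjusted p between 0.052 and 0.077. The other 3 calls of *Gabra4* were kept without any 1 mouse.

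*Gabra4* was the only one of the 7 subunits called in WT_OL, in WT_RL and in KO_OL against the untrained mice of the genotype, and *Gabra3* was called beside it in KO_RL against KO_Basal. Of all genes, 9.50%, 15.7%, 23.5% and 23.6% were called in these comparisons, so that the share of subunits called (14.3%, 14.3%, 14.3% and 28.6%) was near that of all genes. Groups did not overlap for 3, 3, 2 and 2 of the 7 subunits in the same order, against 28.3%, 34.3%, 48.8% and 45.3% of all genes. An exact permutation test of 3 against 3 mice cannot go below p = 0.1 for a single gene.

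**Figure D2:**
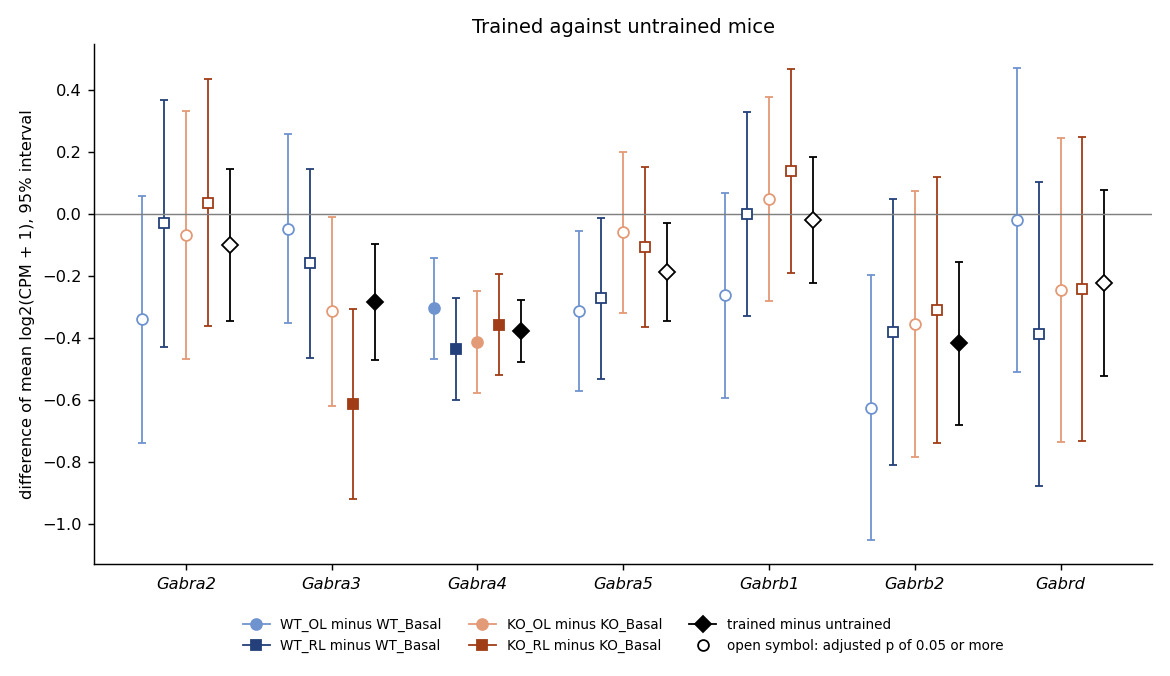
Difference of mean log2(CPM + 1) with its 95% interval (vertical axis) for each of the 7 subunits in the 4 comparisons of trained with untrained groups and in the average over them. Filled symbols passed an adjusted p of 0.05: *Gabra4* is filled in all 5, at -0.44 to -0.31, *Gabra3* in KO_RL and in the average, and *Gabrb2* in the average.

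*Gabra3*, an alpha subunit with a low level in hippocampus compared with other forebrain regions, varied more between mice. In WT mice its level was 88.8, 104 and 99.3 CPM in WT_Basal, 99.3, 90.7 and 92.4 CPM in WT_OL, and 102, 77.7 and 82.5 CPM in WT_RL, and the groups overlapped. In KO mice it was 144, 116 and 115 CPM in KO_Basal, 98.1, 118 and 85.8 CPM in KO_OL, and 68.3, 101 and 77.2 CPM in KO_RL. All KO_RL mice were below all KO_Basal mice. All KO_Basal mice were above all WT_Basal mice, a difference that limma did not call (adjusted p = 0.99). An exact permutation test of 3 against 3 mice gives p = 0.1 for such a separation.

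*Gabra3* fell by 0.61 (SE 0.14, adjusted p = 0.0063) in KO_RL against KO_Basal. The change in WT_RL was -0.16 (adjusted p = 0.50). The KO change minus the WT change was -0.45 (SE 0.20, 95% interval -0.89 to -0.02, adjusted p = 0.91), so that WT and KO mice were not shown to differ here. KO_OL against KO_Basal gave -0.32 (adjusted p = 0.12) and KO_RL against KO_OL -0.30 (adjusted p = 1.0).

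The highest *Gabra3* level, 144 CPM, was in KO_Basal replicate 1, the library with hypothalamic markers. The same library had the highest levels of *Gabrq* and *Gabre*, the theta and epsilon subunits, which are known from hypothalamus and which neighbour *Gabra3* on the X chromosome: 10.5 and 1.30 CPM, against at most 3.71 and 0.68 CPM in the other libraries. Without it, the change of *Gabra3* in KO_RL was -0.51 (adjusted p = 0.042). Choroid plexus markers also moved with these groups, with summed levels of all 7 markers of 44.5 to 662 CPM in KO_Basal and 1322 to 4993 CPM in KO_RL, and their part was not tested.

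*Gabrb2*, a beta subunit of synaptic receptors, had levels of 315, 326 and 323 CPM in WT_Basal and 297, 295 and 337 CPM in KO_Basal. In trained WT mice it was 245, 131 and 279 CPM after original learning and 278, 204 and 264 CPM after reversal learning. In trained KO mice it was 240, 253 and 230 CPM and 214, 301 and 239 CPM, respectively. One trained mouse of 12, KO_RL replicate 2, was above the lowest untrained mouse.

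None of the 4 separate comparisons called *Gabrb2*, with log2 changes of -0.63 (WT_OL, SE 0.20, adjusted p = 0.063), -0.38 (WT_RL, adjusted p = 0.22), -0.35 (KO_OL, adjusted p = 0.22) and -0.31 (KO_RL, adjusted p = 0.28). The WT_OL value rested on replicate 2: without this library it was -0.29 (adjusted p = 0.22). Without WT_OL replicate 3 *Gabrb2* was called beside *Gabra4*.

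Since all 4 values had the same sign, the mean of the 4 trained groups was set against the mean of the 2 untrained groups, a comparison chosen after the values had been seen. *Gabra4* fell by 0.38 (SE 0.05, adjusted p = 1.5e-05), *Gabrb2* by 0.42 (SE 0.12, adjusted p = 0.014) and *Gabra3* by 0.28 (SE 0.09, adjusted p = 0.018). These 3 of 7 subunits are 42.9%, against 38.0% of all genes called in this comparison. The median of the 7 log2 changes was -0.22, and that of all genes was 0.00. Without WT_OL replicate 2, *Gabrb2* was at -0.34 (adjusted p = 0.0019). *Gabra3* was not called without WT_Basal replicate 2 (-0.26, adjusted p = 0.051) or KO_Basal replicate 1 (-0.23, adjusted p = 0.068).

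*Gabra5*, the alpha subunit of extrasynaptic receptors of pyramidal neurons, was 254 ± 25.1 CPM in WT_Basal, 205 ± 23.9 CPM in WT_OL and 210 ± 20.7 CPM in WT_RL (SD, n = 3 each). All 3 WT_Basal mice were above all 6 trained WT mice. Its log2 changes of -0.31 and -0.27 did not pass the test (adjusted p = 0.12 and 0.14). In KO mice the groups overlapped, at 225 ± 23.0, 216 ± 35.3 and 208 ± 18.6 CPM, and over all trained mice the change was -0.19 (SE 0.07, adjusted p = 0.058).

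*Gabrd*, which encodes the delta partner of alpha4, was 32.9 ± 2.70 CPM in WT_Basal and 34.3 ± 4.16 CPM in KO_Basal. The trained groups had means of 25.7 to 33.0 CPM, and individual trained mice spread from 17 to 42.7 CPM. The change over all trained mice was -0.22 (SE 0.14, adjusted p = 0.23). The highest library was WT_OL replicate 2, in which 4 of the other subunits were at their lowest.

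*Gabra2*, an alpha subunit of synapses on the cell body and axon initial segment, ranged over all libraries from 26.6 to 64.3 CPM, with a median of 51.3 CPM. *Gabrb1*, which encodes the beta1 subunit, ranged from 20.6 to 43.5 CPM, with a median of 33.2 CPM. Both minima were in WT_OL replicate 2 and both maxima in KO_RL replicate 2. The changes over all trained mice were -0.10 (95% interval -0.34 to 0.14) and -0.02 (-0.22 to 0.18), both with overlapping groups.

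*Gabrb1* starts next to *Gabra4*, and the levels of the pair were therefore also compared within each library. The CPM ratio of *Gabra4* to *Gabrb1* ran from 3.88 to 5.03 in untrained and from 2.63 to 5.64 in trained mice. That of *Gabra4* to *Gabrd* ran from 4.14 to 5.13 in untrained and from 2.72 to 6.11 in trained mice. Both ratios were chosen after the values had been seen and follow from the changes given above, and both overlapped. An exact permutation of the training labels within genotype gave p = 0.010 for the ratio to *Gabrb1* and p = 0.33 for that to *Gabrd*. Because of that choice, these p-values add no evidence to the changes given above.

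The GC trend that separates trained from untrained libraries was examined for the called subunits. Over the 18 libraries, which share these technical properties with their group, the correlation of log2 level with the GC trend was -0.83 for *Gabra4*, -0.77 for *Gabrb2* and -0.54 for *Gabra3*. Within the 12 trained libraries it was -0.04 for *Gabra4* and -0.68 for *Gabrb2*, and within the 6 untrained libraries 0.03 and -0.26. *Gabra3* was at -0.41 within the trained and, with the opposite sign, at 0.73 within the untrained libraries.

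Each library was then corrected for its trend with GC content and transcript length. In trained against untrained mice *Gabra4* stayed called at -0.23 (adjusted p = 0.0027) and *Gabrb2* at -0.33 (adjusted p = 0.023), while *Gabra3* was at -0.15 (adjusted p = 0.18). The correction also removes any part of a real change that follows GC content, and after it 27.6% of all genes were called. The corrected levels of *Gabra4* overlapped, with untrained mice at 7.09 to 7.23 and trained mice at 6.67 to 7.11 on the log2 scale. In the separate comparisons after correction, *Gabra4* remained called in WT_RL (-0.31, adjusted p = 0.030; 8.37% of all genes called) and KO_OL (-0.27, adjusted p = 0.037; 14.6%). It was not called in WT_OL (-0.12, adjusted p = 0.47; 3.70%) or KO_RL (-0.24, adjusted p = 0.060; 12.7%), and *Gabra3* was still called in KO_RL (-0.50, adjusted p = 0.022).

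**Figure D3:**
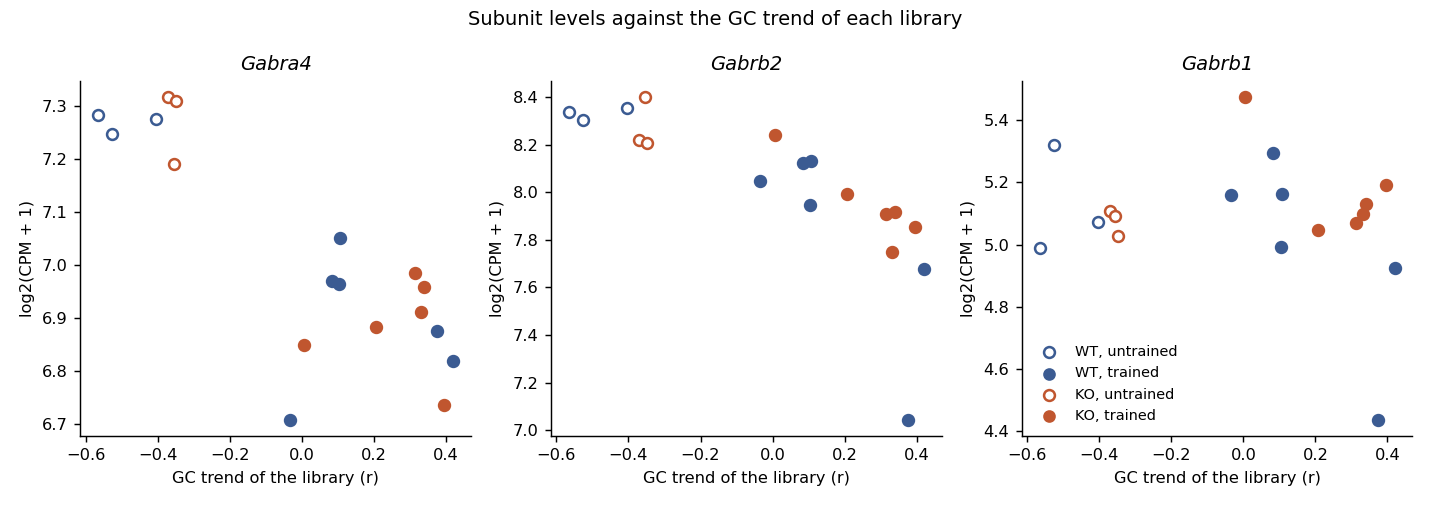
log2(CPM + 1) of *Gabra4*, *Gabrb2* and *Gabrb1* (vertical axes, not starting at 0) against the GC trend of each of the 18 libraries (horizontal axis, a correlation coefficient), with untrained mice as open and trained mice as filled circles. Untrained libraries lie at -0.57 to -0.35 and trained ones at -0.03 to 0.42, and within the trained libraries *Gabrb2* declines along the axis (r = -0.68) while *Gabra4* does not (r = -0.04).

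Per length, counting CPM per kb of the longest transcript in WT_Basal, *Gabra5* had the highest level of the 7 subunit mRNAs at 95.2 ± 9.41 (SD, n = 3). *Gabrb2* followed at 80.5 ± 1.43, *Gabra4* at 37.3 ± 0.49, *Gabra3* at 26.6 ± 2.15 and *Gabrd* at 12.2 ± 0.996, each without overlap with its neighbours in this order. *Gabra2* (8.58 ± 0.81) overlapped with *Gabrg1* (7.68 ± 0.91), and *Gabrb1* was at 2.48 ± 0.31.

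Among the 7 subunits this order hardly varied. *Gabra5* ranked above *Gabrb2* in 17 of 18 libraries, *Gabra4* above *Gabra3* in 16 and *Gabrd* above *Gabra2* in 16, and *Gabrb1* was last in all 18. The longest annotated transcript need not be the one in use, and the 13737 bases annotated for *Gabrb1* against 2671 for *Gabra5* weigh on this order.

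**Figure D4:**
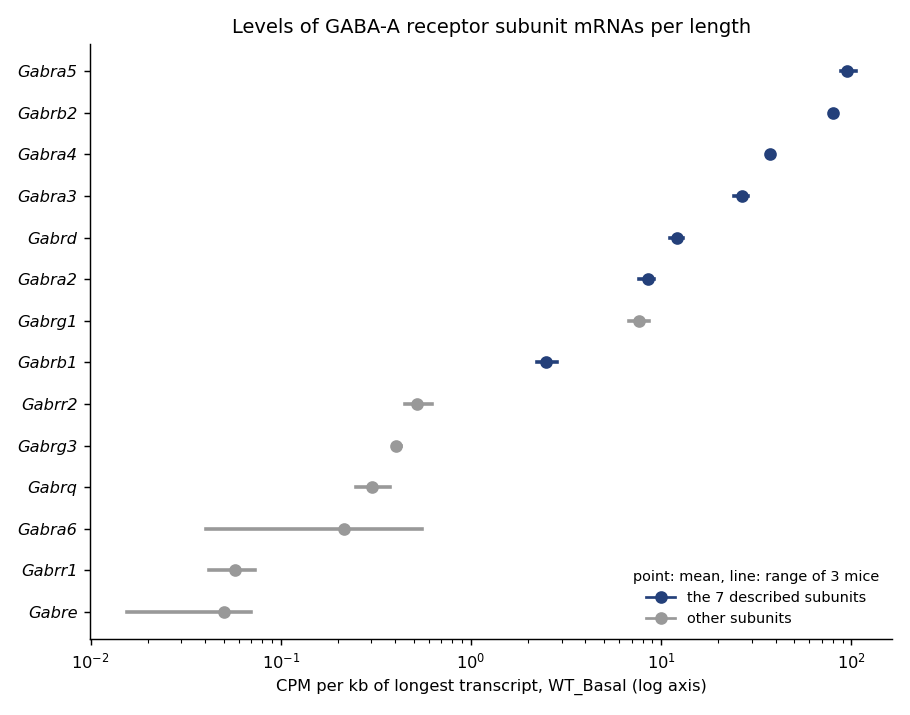
Level of 14 subunit mRNAs in WT_Basal as CPM per kb of longest transcript (horizontal log axis), with the mean (point) and range (line) of 3 mice, the 7 described subunits in blue and the other 7 in grey. *Gabra5* and *Gabrb2* are the highest of those shown, at 95.2 and 80.5, and *Gabrb1* is the lowest of the 7, at 2.48.

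The 7 further subunits of the family were counted in the same comparisons. *Gabrg1*, a gamma subunit whose gene lies beside *Gabra2* on chromosome 5, was at 32.5 to 41.2 CPM in WT_Basal and 33.9 to 58.6 CPM in KO_Basal, and at 17.8 to 28.3 CPM in all 12 trained mice. It fell by 0.70 on the log2 scale over all trained mice (adjusted p = 4.2e-05), by 0.78 in KO_OL and by 1.09 in KO_RL. In WT_OL and WT_RL, whose groups did not overlap with WT_Basal either, it was at -0.48 and -0.44 (adjusted p = 0.068 and 0.071). Its level in the KO_Basal mice was 58.6, 42.9 and 33.9 CPM, the highest again in replicate 1, and without that library the changes were -0.58 and -0.89 (adjusted p = 0.015 and 0.0014). After GC and length correction it was called in KO_RL (-0.73, adjusted p = 0.013) and not in KO_OL (-0.35, adjusted p = 0.19). The corrected changes in WT mice were -0.08 in WT_OL and -0.06 in WT_RL (adjusted p = 0.86 and 0.88). Over all trained mice the corrected change of *Gabrg1* was -0.30 (adjusted p = 0.045). *Gabrg3* rose by 0.55 in KO_RL (adjusted p = 0.0499), a call that voom on the recovered reads did not make and that was lost without any 1 of 5 of the 6 mice. *Gabrr1* and *Gabrr2*, the rho subunits known from retina, rose in WT_RL by 0.65 and 0.74. Their levels in the WT_RL mice were 0.16, 0.79 and 1.70 CPM and 1.32, 2.12 and 4.12 CPM. Both calls were lost without any 1 mouse other than WT_RL replicate 1, and without replicate 3 the changes were 0.35 and 0.43 (adjusted p = 0.12 and 0.10). Thalamic and habenular neuron markers had the same order in these libraries, with sums of 136, 229 and 300 CPM (130 to 187 CPM in WT_Basal) and 2 of 7 called higher. So had choroid plexus markers, at 41.3, 842 and 8381 CPM, and the part of either was not tested. The changes of *Gabrg3*, *Gabrr1* and *Gabrr2* are given without GC and length correction.

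In all, these 7 subunits had no call in WT_OL (1 at an unadjusted p under 0.05, and 0 by voom), 2 higher and 0 lower calls in WT_RL, 0 and 1 in KO_OL, and 1 and 1 in KO_RL. The shares called (0%, 28.6%, 14.3% and 28.6%) stand beside 9.50%, 15.7%, 23.5% and 23.6% of all genes. Their median log2 changes were -0.31, 0.06, -0.09 and -0.25, beside medians of all genes of between -0.01 and 0.00. *Gabra6*, the alpha6 subunit of cerebellar granule cells, had 1.37 CPM or less everywhere and 0 reads in 3 libraries.

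Of 19 genes for inhibitory synapse scaffolds and receptor trafficking, 1 was called higher in WT_OL, 2 in WT_RL, 3 in KO_OL and 3 in KO_RL, and none lower. These shares of 5.26%, 10.5%, 15.8% and 15.8% were below those of all genes. Over all trained mice 4 were called higher and 1 lower (*Gabarapl1*, of the GABARAP family, at -0.12), together 26.3% against 38.0% of all genes. *Trak1*, a kinesin adaptor for receptor and mitochondrial transport, rose in all 4 by 0.29 to 0.40. *Clptm1*, which holds receptors back in the secretory pathway, rose by 0.25 in WT_RL, 0.39 in KO_OL and 0.34 in KO_RL. *Nlgn2*, the adhesion protein of inhibitory synapses, rose by 0.52 in KO_OL and 0.48 in KO_RL. The WT_RL call of *Clptm1* was lost without WT_Basal replicate 1 or 3 or WT_RL replicate 2, and the KO_RL call of *Nlgn2* without KO_Basal replicate 2 (0.43, adjusted p = 0.054). The median change of the 19 was between -0.13 and 0.08. The changes of these genes are given without GC and length correction.

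Of 9 genes for GABA synthesis, transport, chloride balance and GABA-B receptors, 2 were called in WT_RL (22.2%, against 15.7% of all genes) and 1 in KO_OL (11.1%, against 23.5%), all higher. None was called in WT_OL or KO_RL by limma or voom, with 1 and 2 at an unadjusted p under 0.05. *Slc6a11*, an astrocytic GABA transporter, rose by 0.78 and *Slc12a5*, the chloride exporter of mature neurons, by 0.40 in WT_RL, and *Slc32a1*, the vesicular GABA transporter, by 0.44 in KO_OL. The call of *Slc6a11* was lost without WT_Basal replicate 1 or 3 or WT_RL replicate 2 or 3 (0.60 to 0.77, adjusted p = 0.052 to 0.071), the last 2 being the libraries with the higher thalamic and habenular markers given above, whose part was not tested. That of *Slc12a5* was lost without any 1 of the 6 mice (0.37 to 0.45), and that of *Slc32a1* without any but KO_OL replicate 1, with 0.24 (adjusted p = 0.21) without KO_OL replicate 3. Summed interneuron markers overlapped in every one of these comparisons, at 727 to 850 CPM in untrained and 735 to 919 CPM in trained mice. The changes of the 9 genes are given without GC and length correction.

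Summed dentate granule and CA pyramidal neuron markers also overlapped between trained and untrained mice, at 293 to 412 against 205 to 431 CPM and at 567 to 858 against 577 to 911 CPM. Of their 5 and 7 markers, 2 and 1 were called lower, and 0 and 1 higher, in trained mice. Astrocyte markers were lower in KO_OL and KO_RL than in KO_Basal without overlap (1697 to 1743 and 1633 to 1848 against 1950 to 1971 CPM). So were endothelium markers (140 to 162 and 151 to 168 against 171 to 188 CPM). In KO_OL only, microglia markers (267 to 279 against 294 to 315 CPM) and nuclear RNAs (1153 to 1733 against 2706 to 3642 CPM) were also lower without overlap. The part of all these markers in the changes of the subunits was not tested. Of 8 immediate early genes, which neurons switch on with activity, 6 were called higher in trained mice, where 38.0% of all genes were called. Their sums did not overlap in WT mice, at 271 to 275 CPM in WT_Basal, 559 to 805 CPM in WT_OL and 364 to 445 CPM in WT_RL. In KO mice they overlapped, at 281 to 519 CPM in KO_Basal, 511 to 781 CPM in KO_OL and 479 to 538 CPM in KO_RL.

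Genotype was compared within each training state. None of the 7 subunits was called in KO_Basal against WT_Basal, KO_OL against WT_OL, KO_RL against WT_RL or over all training states, where limma called 0.0196%, 0.0652%, 0% and 0.0326% of all genes, and voom on the recovered reads called none of the 7 either. In KO_RL against WT_RL, with 0 calls, 756 genes had an unadjusted p under 0.05. At an unadjusted p under 0.05 there was 1 subunit in these 4 comparisons: *Gabra3* in KO_Basal, at 0.35 (95% interval 0.05 to 0.66, adjusted p = 0.99), and 0.25 (adjusted p = 1.0) without KO_Basal replicate 1. Summed choroid plexus markers (44.5 to 662 against 850 to 4323 CPM) and astrocyte markers (1950 to 1971 against 1729 to 1925 CPM) did not overlap between KO_Basal and WT_Basal. Nor did immediate early genes (281 to 519 against 271 to 275 CPM) or hypothalamic markers (1.82 to 104 against 0.83 to 1.78 CPM). Immediate early gene sums also did not overlap between KO_RL and WT_RL, at 479 to 538 against 364 to 445 CPM. Oligodendrocyte, astrocyte and endothelium sums did not overlap between KO_OL and WT_OL. Dentate granule, CA pyramidal and interneuron sums overlapped between genotypes in each training state. The part of these markers was not tested.

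The intervals over all training states apply to the mean of the genotype differences within the states. They do not bound a difference in a single state. There the intervals were wider, for example -0.21 to 0.64 for *Gabrb2* in KO_OL against WT_OL. For *Gabra4* the difference of KO minus WT was -0.01 (95% interval -0.10 to 0.09), for *Gabra5* -0.04 (-0.19 to 0.11) and for *Gabrb2* 0.06 (-0.19 to 0.30). For *Gabra3* it was 0.11 (-0.06 to 0.29), for *Gabrb1* 0.10 (-0.09 to 0.29) and for *Gabrd* 0.03 (-0.25 to 0.31). *Gabra2* had the largest value, 0.21 (-0.02 to 0.44, adjusted p = 0.64). Without WT_OL replicate 2 *Gabra2* was at 0.12 and *Gabrb2* at -0.05. In KO_OL against WT_OL *Gabra2* was at 0.37, and at 0.09 without WT_OL replicate 2, while it was called there without WT_OL replicate 3.

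**Figure D5:**
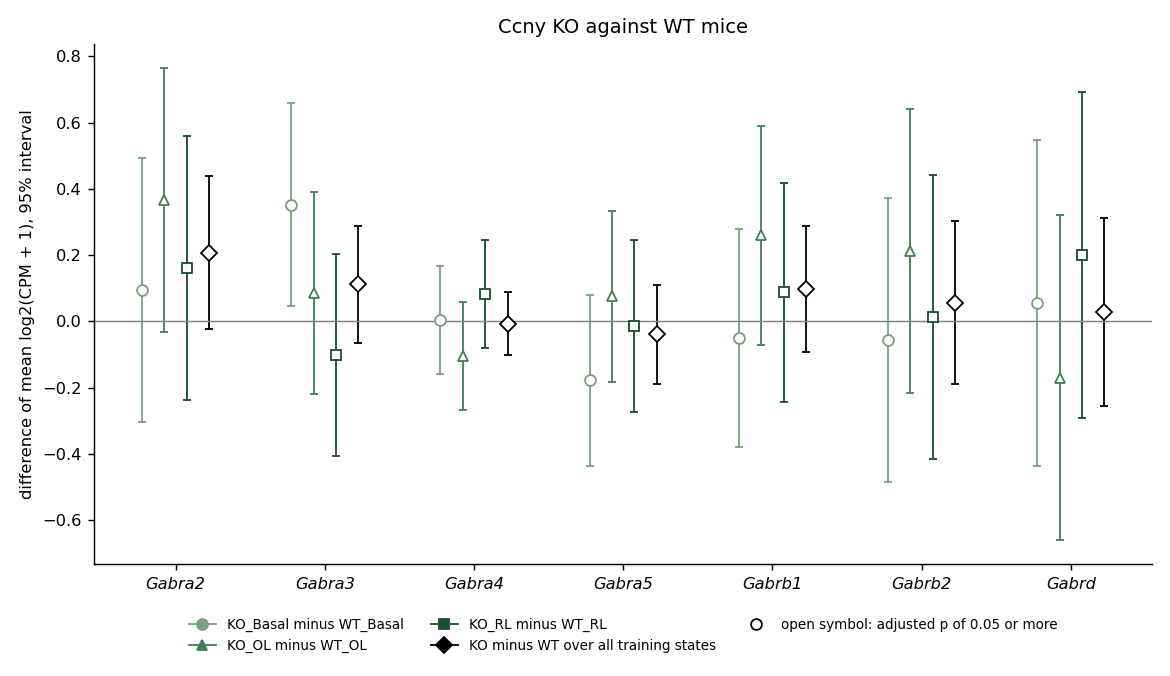
Difference of mean log2(CPM + 1), KO minus WT, with its 95% interval (vertical axis) for the 7 subunits in each training state and over all of them. All symbols are open, since no adjusted p was under 0.05, and the interval for *Gabra4* over all states is the narrowest, at -0.10 to 0.09.

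Reversal against original learning called none of the 7 subunits in WT mice (0.261% of all genes called) or KO mice (0.0196%), and none had an unadjusted p under 0.05. The changes ran from -0.37 (*Gabrd*) to 0.31 (*Gabra2*) in WT mice, which narrowed to between -0.18 (*Gabra4*) and 0.05 (*Gabrb1*) without WT_OL replicate 2, and from -0.30 (*Gabra3*) to 0.10 (*Gabra2*) in KO mice. The differences between genotypes in the change with original learning, from original to reversal learning, and from untrained to reversal learning gave 0 calls among all genes (0% each), with 1908, 1224 and 765 genes at an unadjusted p under 0.05, and voom called none of the 7.

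Over the 18 libraries the subunits did not vary as one group. *Gabra2* and *Gabrb1* had a correlation of 0.92, and 0.78 without WT_OL replicate 2, and *Gabra2* and *Gabrb2* one of 0.81, and 0.51 without it. *Gabra4* and *Gabrb1*, the head-to-head neighbours, had 0.03. *Gabrd* and *Gabrb1* were at -0.57. These values describe libraries that share training, GC trend and depth and that differ in their trend with transcript length. With this length trend, log2 levels had correlations of 0.74 for *Gabrb1*, 0.68 for *Gabra2* and 0.34 for *Gabrb2*. They were -0.36 for *Gabra4* and -0.62 for *Gabrd*. The part of the length trend in the correlations between subunits was not tested.

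Among genes with a mean log2 value of at least 3, those most like each subunit over the 18 libraries were *Dmxl2*, *Tnrc6c* and *Myo9a* for *Gabra2* (r = 0.96 to 0.97), *Kcnj16*, *Aida* and *Gap43* for *Gabra3* (0.83 to 0.87), and *Zfand5*, *Mblac2* and *Trmt6* for *Gabra4* (0.94 to 0.95). For *Gabra5* they were *Neurod6*, *Zbtb18* and *Fam19a1* (0.89 to 0.94), of which *Neurod6* is a transcription factor of pyramidal neurons. For *Gabrb1* they were *Nkain3*, *Grin2b* and *Atm* (0.94 to 0.96), for *Gabrb2* *Cpeb4*, *Lnp* and *Bclaf1* (all 0.98), and for *Gabrd* *Ppp1ca*, *Rgs4* and *Arpp19* (0.83 to 0.86). No other subunit described here was among these 3 nearest genes of any of the 7.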

How the data were processed

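RNA-seq libraries of poly-A RNA, 1 per mouse, were read from both ends, and the 18 libraries were assigned to groups by their titles. The authors aligned reads to mm10 with STAR 2.5.1, counted them per gene, and deposited log2 values of CPM normalized by TMM in edgeR 3.12.1. The description of the study gives CPM floored at 1, but the deposited log2 values are log2(CPM + 1): subtracting 1 from the back-transformed values left whole reads for 100% of values (tolerance 0.01 reads). CPM and reads were recovered in this way, at 0.0274 to 0.0333 CPM per read. Intervals from counts were not used, since they cover counting error only.

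The log2 values were fitted with limma 3.58.1 in R 4.3.3 (1 mean per group, all 18 libraries, variance trend, two-sided, 12 residual degrees of freedom). Genes needed a value above 0 in at least 3 libraries, which all 15329 met. The procedure was tested on simulated data. Labels name 1 mouse per library, so p-values measure the spread between mice. The subunits and gene lists were chosen with earlier results of these data known. Some genes of these lists are not reported here and were left out of every count of a list. Genes named are the 7 subunits, *Ccny*, list genes that were called, and the 3 genes most like each subunit, with marker genes and *Gabra6*, *Gabre* and *Gabrq* named after their values were seen; the ratios, the trained against untrained comparison and the hypothalamic markers were added once values were known. Gene positions, lengths and GC content came from GENCODE M21 on GRCm38. Alternatives were the floored scale, a pseudocount of 0.25, a mean log2 filter of 3, centred medians, voom on the recovered reads, fits of the compared groups, library weights (statmod 1.5.0), a replicate block, GC and length correction (loess, span 0.5), and leaving out each mouse. Figures used Python 3.11.15 and matplotlib 3.10.9.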

Additional observations from a re-analysis of the deposited data

How the results depend on the processing

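The count of called subunits kept its value in all 14 comparisons with CPM floored at 1, a pseudocount of 0.25, the mean log2 filter, centred medians and voom on the recovered reads, and no log2 change of a called subunit reversed under any alternative. In WT_OL against WT_Basal the count of 1 went to 0 with the compared groups only, with GC and length correction, and with replicate block and GC and length correction, to 4 with library weights, and to between 0 and 2 when 1 mouse was left out. In KO_OL against KO_Basal it went from 1 to 2 (*Gabra4* and *Gabrb2*) with the compared groups only and with library weights. In KO_RL against KO_Basal it went from 2 to 1 with GC and length correction, with or without the block. In KO_OL against WT_OL it went from 0 to 2 with library weights and was between 0 and 1 when 1 mouse was left out. In trained against untrained mice it went from 3 to 5 with library weights, to 2 with GC and length correction, and was between 2 and 4 when 1 mouse was left out. The library weights did not converge and gave WT_OL replicate 1 a weight of 301, against 4 or less for the other libraries. Replicate numbers were not taken as pairs: 13 of 45 pairs of libraries with the same number had correlated deviations over 0.1 (range -0.69 to 0.68), against 36 of 90 other pairs. This count cannot exclude a pairing, since libraries with different numbers also share GC and length trends. The highest correlation, 0.68, was between WT_OL replicate 2 and WT_RL replicate 2. The replicate block alone changed no count of called subunits: it left 1, 1, 1 and 2 in the 4 comparisons of trained with untrained groups, and the change of *Gabra4* in WT_OL had an adjusted p of 0.025 with it. The log2 change of *Ccny* in KO_Basal against WT_Basal was between -0.78 and -0.70 throughout, and its adjusted p of 0.012 rose to as much as 0.12 without KO_Basal replicate 3. The causes of these changes were not tested. The 7 subunits had 560 reads or more in every library, while *Gabra6* had 0 reads in 3 libraries and *Gabrr1* had 2 to 56 reads, which limits what can be said of these 2.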
